A study of Homo sapiens with 12 samples.

Results

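Cystatins are small protein inhibitors, and the cathepsins described here are the lysosomal cysteine proteases that cystatins block. The set held 10 genes, all of them measured, among the 18417 genes with a probe set of their own: the type 2 cystatin genes CST1, CST3, CST4 and CST6, the type 1 cystatin genes CSTA and CSTB, and the cathepsin genes CTSB, CTSL, CTSS and CTSV. Each gene was read from a probe set that carries its symbol alone, selected on the highest mean log2 level over all 12 arrays. Each of the 10 genes had 1 such probe set, so this selection decided nothing. The family was picked with earlier results of these data known, the log2 changes in the resistant cells included. The adjusted p-values below run over all 18417 genes and do not allow for that, so they set each difference against the spread between arrays and are not independent evidence.

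Pancreatic ductal adenocarcinoma cells in 4 groups were profiled on Affymetrix arrays, 3 per group: AsPC1-R with its parental line AsPC1, and BxPC3-R with its parental line BxPC3. AsPC1-R and BxPC3-R resist cisplatin, which kills cells by forming platinum crosslinks on DNA. Cisplatin was present at 1.67 µM for AsPC1-R and at 0.60 µM for BxPC3-R, and was omitted in the final passage, so no group was under drug at harvest. Each line has 1 resistant derivative, and an effect of resistance cannot be told apart from a trait of that derivative. Nothing in the labels says whether replicate arrays stem from separate cultures. The p-values therefore measure spread between these samples alone, and that spread may be technical. In such bulk RNA, fewer cells of a kind and less RNA per cell cannot be told apart.

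Cystatins bind in the active site cleft of papain-like proteases, tightly and reversibly. Type 1 cystatins, also called stefins, lack a signal peptide and act mainly inside the cell, while type 2 cystatins are secreted. Cathepsins B, L, S and V are made as inactive proenzymes, are carried to the lysosome by mannose 6-phosphate receptors, and can be secreted by tumour cells. In the pancreas, cathepsin B is known for activating trypsinogen and cathepsin L for inactivating trypsin.

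Levels are log2 values after RMA, a normalization that makes arrays alike in distribution. The 12 array medians ran from 6.48 to 6.65, and precision is limited by having 3 arrays per group. SMAD4 and CDKN2A are deleted in BxPC3, and their readings there, 4.70 and 6.22, show what a missing gene can read on these arrays. All 8 ductal epithelial markers (KRT7, KRT8, KRT18, KRT19, EPCAM, CDH1, MUC1 and CEACAM6) reached the median of all values, 6.55, in every group. BxPC3 replicate 2 stood apart: of the 50 genes in which AsPC1 most exceeds BxPC3-R, all 50 had their top BxPC3 reading on this array, with a median excess of 0.83. For the 10 genes described here that array differed from the mean of the other BxPC3 arrays by at most 0.19, the value for CTSV, and the results on BxPC3 are given with and without it.

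**Figure D1:**
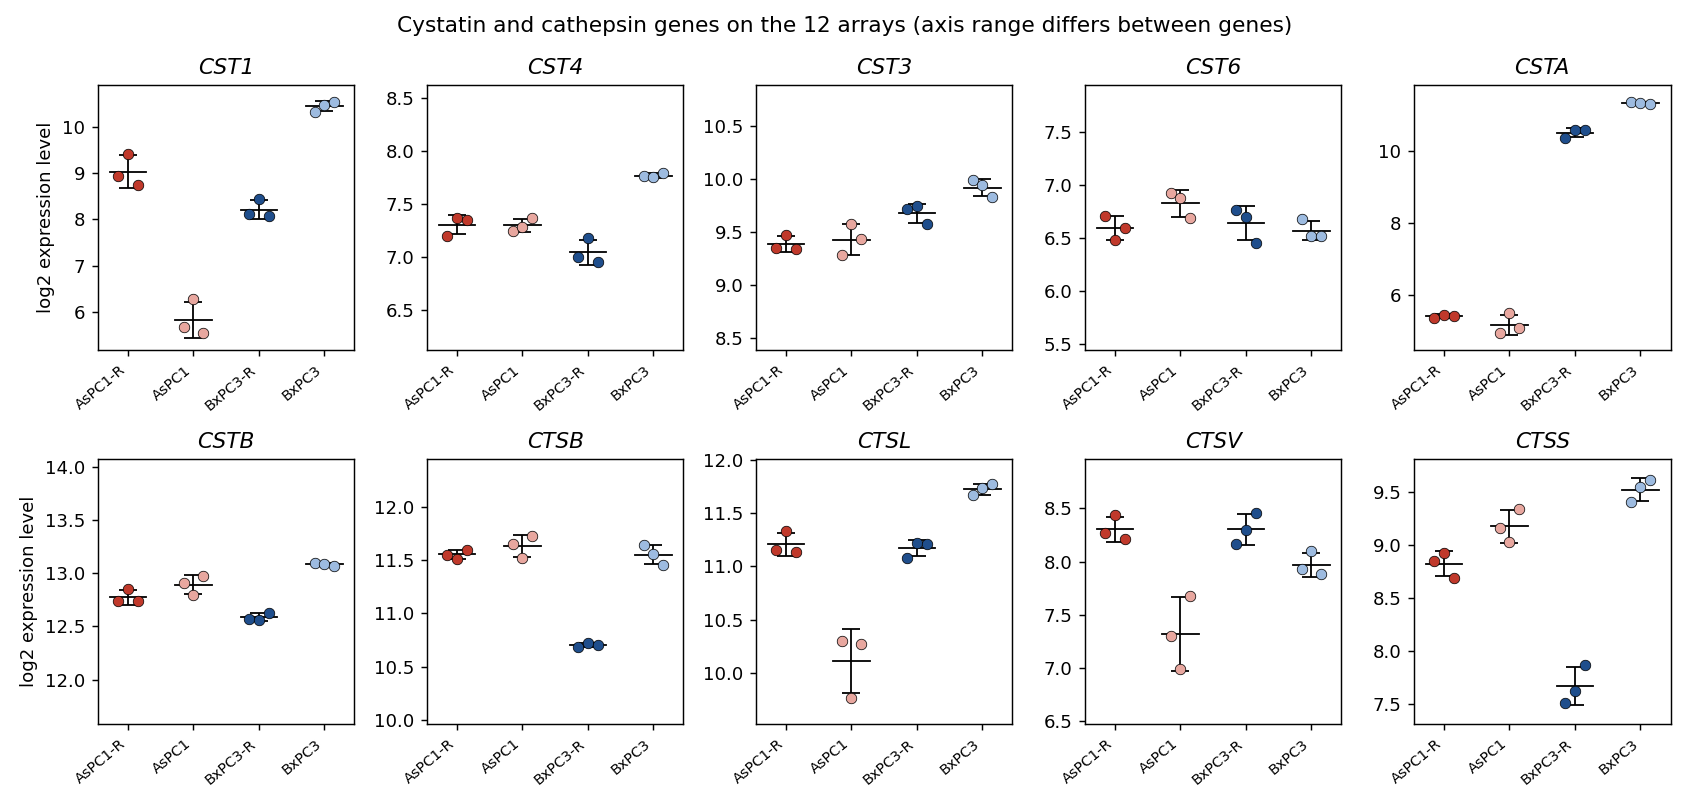
Log2 expression level (vertical axis) of each gene on the 12 arrays, in the groups AsPC1-R, AsPC1, BxPC3-R and BxPC3. Points are arrays, horizontal lines means and bars 1 SD (n = 3). CST1 ranges from a mean of 5.83 in AsPC1 to 10.44 in BxPC3, and CSTA reads between 4.95 and 5.50 on every AsPC1-R and AsPC1 array. CST4, CSTB, CTSB and CTSS are lowest in BxPC3-R.

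In AsPC1-R, set against AsPC1, changes were called for 4 of the 10 genes. CST1 rose 9.20-fold, and the paralogous protease genes CTSL and CTSV rose 2.15-fold and 1.98-fold. CTSS fell by 0.35 on the log2 scale, a call that was lost without any one of 5 arrays. No change was called for CST3, CST4, CST6, CSTA, CSTB or CTSB. Among all genes, 11.6% were called higher and 8.64% lower at an adjusted p under 0.05, against 3 and 1 of the 10 genes here. By role, 1 of 6 cystatin genes rose and 0 fell, and 2 of 4 cathepsin genes rose and 1 fell. The arrays of AsPC1-R and AsPC1 did not overlap for 4 of the 10 genes, against 33.4% of all genes. The median log2 change of the 10 genes was -0.02, and that of all genes -0.05.

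CST1 encodes cystatin SN, a secreted cystatin first known from saliva. Its log2 level was 8.93, 9.42 and 8.74 in AsPC1-R, against 5.67, 6.27 and 5.54 in AsPC1. Every AsPC1-R array lay more than 2 units above every AsPC1 array. The log2 change was 3.20 (SE 0.19, 95% interval 2.79 to 3.61, adjusted p = 4.01e-08 by limma). AsPC1 averaged 5.83, between the readings of the deleted genes, so CST1 may lie at background in AsPC1, and the size of the rise is uncertain.

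CTSL encodes cathepsin L, an endopeptidase found in most cells. It read 11.16, 11.33 and 11.13 in AsPC1-R, against 10.29, 9.76 and 10.27 in AsPC1. The groups did not overlap, and AsPC1 replicate 2 was lowest. This is a log2 change of 1.10 (SE 0.12, 95% interval 0.83 to 1.37, adjusted p = 2.22e-05 by limma). CTSV encodes cathepsin V, the closest relative of cathepsin L in humans, known mainly from thymus, testis and skin. Its level was 8.27, 8.44 and 8.21 in AsPC1-R, against 7.30, 6.98 and 7.68 in AsPC1. Again AsPC1 replicate 2 was lowest and the groups did not overlap. On the log2 scale the change was 0.98 (SE 0.15, 95% interval 0.67 to 1.30, adjusted p = 2.48e-04 by limma). Without AsPC1 replicate 2 the changes were smaller, 0.93 for CTSL and 0.82 for CTSV, and both were still called.

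CTSS encodes cathepsin S, which stays active at neutral pH and trims the MHC class II invariant chain in antigen-presenting cells. It read 8.85, 8.92 and 8.69 in AsPC1-R, against 9.16, 9.02 and 9.34 in AsPC1. The groups were separate, but by a gap smaller than the spread within either one. limma gave a log2 change of -0.35 (SE 0.11, 95% interval -0.59 to -0.11, adjusted p = 0.0394 by limma). The call was lost without AsPC1-R replicate 1 (adjusted p = 0.0819), AsPC1-R replicate 3 (0.144), AsPC1 replicate 1 (0.0809), AsPC1 replicate 3 (0.114) or BxPC3-R replicate 2 (0.0540).

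Among the genes with no called change, CSTB, which encodes the intracellular stefin B present in nearly all cells, averaged 12.78 in AsPC1-R and 12.89 in AsPC1, with a 95% interval of the log2 change from -0.28 to 0.05. CTSB, which encodes cathepsin B, an endopeptidase that also trims dipeptides from carboxy ends, averaged 11.56 in AsPC1-R and 11.64 in AsPC1 (interval -0.26 to 0.09). For CST3, the gene of the widely secreted cystatin C, the means were 9.39 and 9.43 (interval -0.24 to 0.16). CST4, which encodes the salivary cystatin S, averaged 7.30 in both groups (interval -0.17 to 0.19). CST6 encodes cystatin M/E, an inhibitor of legumain and of cathepsins L and V, and averaged 6.60 in AsPC1-R and 6.83 in AsPC1 (log2 change -0.24, adjusted p = 0.135 by limma). CSTA, the gene of the epidermal stefin A, read 5.36 to 5.46 in AsPC1-R and 4.95 to 5.50 in AsPC1, all lower than the CDKN2A reading of 6.22 in BxPC3. Its change of 0.23 passed the threshold without AsPC1 replicate 2 (0.39, adjusted p = 0.0106 by limma) but stayed within those low readings.

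In BxPC3-R, set against BxPC3, the changes were more numerous and ran downwards. In all, 7 of the 10 genes fell and 0 rose, where 11.0% of all genes were called lower and 9.75% higher. CST1 fell 4.69-fold and CTSS 3.61-fold, and CTSB, CSTA, CST4, CTSL and CSTB fell by 1.41-fold to 1.80-fold. The falls took in 4 of 6 cystatin genes and 3 of 4 cathepsin genes. CST3, CST6 and CTSV were not called. The arrays of BxPC3-R and BxPC3 did not overlap for 9 of the 10 genes, CST6 being the exception, against 38.2% of all genes. The median log2 change was -0.64 over the 10 genes and 0.02 over all genes. Without BxPC3 replicate 2 the count was again 7 of 10.

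CST1 read 8.12, 8.44 and 8.06 in BxPC3-R, against 10.32, 10.47 and 10.53 in BxPC3. All 3 BxPC3-R arrays lay well under all 3 BxPC3 arrays, and above the readings of the deleted genes. The log2 change was -2.23 (SE 0.19, 95% interval -2.64 to -1.82, adjusted p = 2.02e-06 by limma). CTSS read 7.51, 7.62 and 7.86 in BxPC3-R, against 9.40, 9.55 and 9.61 in BxPC3. The groups were far apart compared with their spread. This is a log2 change of -1.85 (SE 0.11, 95% interval -2.09 to -1.61, adjusted p = 6.54e-08 by limma).

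CTSB read 10.68, 10.72 and 10.70 in BxPC3-R, against 11.64, 11.56 and 11.46 in BxPC3. BxPC3-R was the lowest of the 4 groups for this gene, and the other 3 groups overlapped one another. On the log2 scale the change was -0.85 (SE 0.08, adjusted p = 4.91e-06 by limma). CSTA read 10.35, 10.58 and 10.56 in BxPC3-R, against 11.34, 11.33 and 11.29 in BxPC3. The gene stayed far above background in both groups. limma gave a log2 change of -0.82 (SE 0.12, adjusted p = 1.86e-04 by limma).

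For CST4 the levels were 7.00, 7.18 and 6.95 in BxPC3-R, against 7.76, 7.75 and 7.79 in BxPC3. The 3 BxPC3 arrays were nearly equal and all higher. The log2 change was -0.72 (SE 0.08, adjusted p = 2.87e-05 by limma). CTSL changed less, with 11.08, 11.22 and 11.21 in BxPC3-R and 11.67, 11.73 and 11.77 in BxPC3. Its log2 change was -0.56 (SE 0.12, adjusted p = 0.00514 by limma), and the groups did not overlap. CSTB read 12.57, 12.56 and 12.63 in BxPC3-R, against 13.10, 13.09 and 13.07 in BxPC3, a log2 change of -0.50 (SE 0.08, adjusted p = 3.08e-04 by limma).

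Of the remaining genes, CTSV averaged 8.30 ± 0.15 in BxPC3-R and 7.97 ± 0.11 in BxPC3 (mean ± SD, n = 3). It was the gene with the largest positive log2 change here, 0.33 (95% interval 0.02 to 0.65, adjusted p = 0.138 by limma). The rise was called without AsPC1 replicate 3 (adjusted p = 0.0469). CST3 averaged 9.67 ± 0.09 in BxPC3-R and 9.92 ± 0.08 in BxPC3, a log2 change of -0.24 with an adjusted p of 0.0843 by limma (n = 3 each). CST6 averaged 6.64 in BxPC3-R and 6.57 in BxPC3 (95% interval of the change -0.15 to 0.29).

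**Figure D2:**
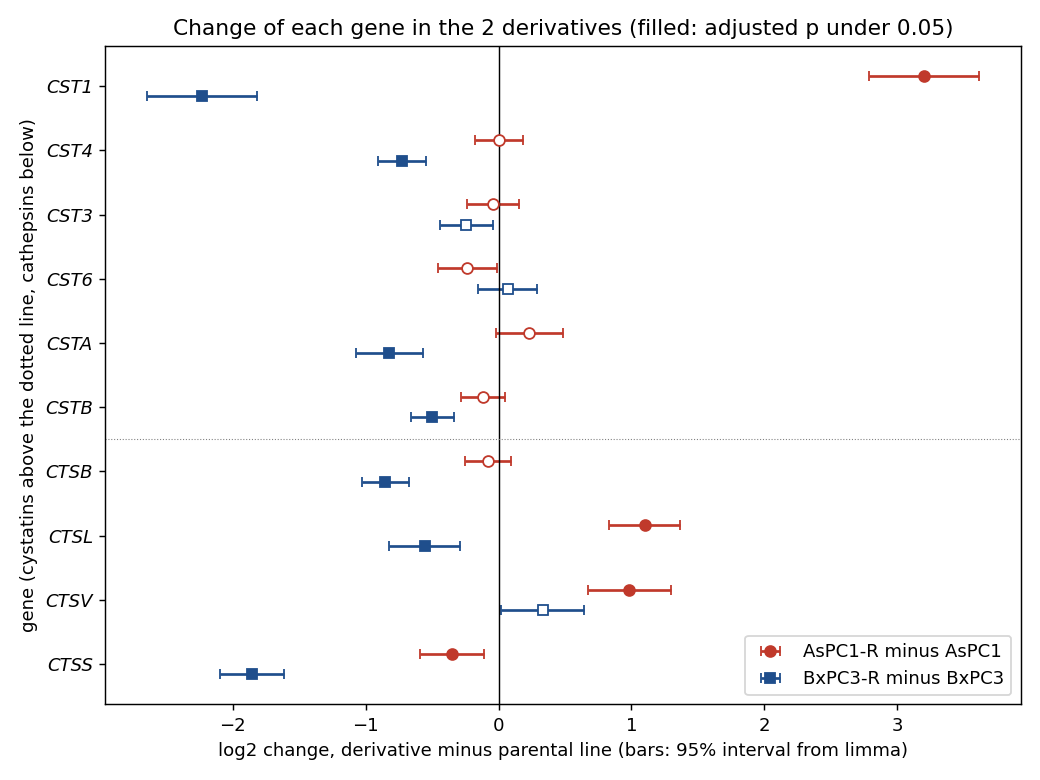
Log2 change of each gene in AsPC1-R minus AsPC1 (circles) and BxPC3-R minus BxPC3 (squares) on the horizontal axis, with 95% intervals from limma, and filled where the adjusted p is under 0.05. CST1 and CTSL lie right of 0 in AsPC1-R and left of 0 in BxPC3-R, while CTSS lies left of 0 in both.

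Whether the derivatives differ in their change was tested directly, as the change in AsPC1-R minus the change in BxPC3-R. This difference was called for 8 of the 10 genes, each time with the higher change in AsPC1-R, where 14.1% of all genes were called in that direction. CST1 changed in opposite directions, by 3.20 in AsPC1-R and -2.23 in BxPC3-R (difference 5.43, SE 0.27, adjusted p = 6.08e-09 by limma). CTSL did the same at smaller size, with 1.10 in AsPC1-R and -0.56 in BxPC3-R (difference 1.66, SE 0.18, adjusted p = 1.00e-05). CTSS fell in both, by 0.35 in AsPC1-R and by 1.85 in BxPC3-R (difference 1.50, SE 0.16, adjusted p = 9.67e-06). The differences for CSTA, CTSB, CST4, CTSV and CSTB ran from 1.05 for CSTA down to 0.38 for CSTB. For CST3 and CST6 the difference was not called (0.20 and -0.30). The call for CTSV (0.65, adjusted p = 0.0318) was lost with each of 7 arrays left out in turn, BxPC3 replicate 2 among them (adjusted p = 0.0753). With arrays centred on their medians, CSTB (adjusted p = 0.0616) and CTSV (0.0648) were not called, and higher changes in AsPC1-R made up 44.4% of the called differences over all genes instead of 55.4%. The CTSV call was also lost with quantile normalization once more (adjusted p = 0.0535 by limma).

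The parental lines also differed from each other. AsPC1 was lower than BxPC3 for 8 of the 10 genes and higher for 0, where 22.9% of all genes were called lower and the median log2 difference over all genes was 0.11. CSTA averaged 5.19 ± 0.28 in AsPC1 and 11.32 ± 0.02 in BxPC3 (mean ± SD, n = 3), a log2 difference of -6.13 (SE 0.12, adjusted p = 5.50e-14 by limma). CST1 differed by -4.61 (SE 0.19, adjusted p = 8.93e-11). Both genes averaged between the readings of SMAD4 and CDKN2A in AsPC1, so these differences are uncertain in size. CTSL differed by -1.62, CTSV by -0.65, CST3 by -0.49 and CST4 by -0.47. CTSS differed by -0.34, a call lost without BxPC3 replicate 2 (adjusted p = 0.0568), BxPC3 replicate 3 (0.0770), AsPC1 replicate 1 (0.0505) or AsPC1 replicate 2 (0.0823). It was also lost with quantile normalization once more (adjusted p = 0.0589 by limma). CSTB differed by -0.19 (adjusted p = 0.0496), and only AsPC1-R replicate 2 and AsPC1 replicate 3 could be left out without losing that call. Without BxPC3 replicate 2, 6 of the 10 genes were called. CTSB (0.08) was not called. CST6, at 6.83 in AsPC1 and 6.57 in BxPC3, read not far above the deleted CDKN2A. Its difference (0.26, adjusted p = 0.0518) lay just outside the threshold and was called, as higher in AsPC1, under 8 of 20 alternatives. Among these were leaving out AsPC1 replicate 3 (adjusted p = 0.0220), BxPC3-R replicate 3 (0.0383) or BxPC3 replicate 1 (0.0388).

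Between AsPC1-R and BxPC3-R, 6 of the 10 genes differed, against 43.3% of all genes. CTSS was higher in AsPC1-R by 1.16 (SE 0.11), CTSB by 0.85 (0.08), CST1 by 0.82 (0.19) and CST4 by 0.26 (0.08), while CSTA was lower by 5.08 (0.12) and CST3 by 0.29 (0.09). CTSL averaged 11.21 in AsPC1-R and 11.17 in BxPC3-R, and CTSV 8.30 in both. The 95% interval of the difference was -0.23 to 0.31 for CTSL and -0.31 to 0.31 for CTSV. CSTB (0.19, adjusted p = 0.0602 by limma) and CST6 (-0.05, 0.774) were not called. Under some alternatives CSTB was called as higher in AsPC1-R, at an adjusted p of down to 0.00496. The calls for CST3 and CST4 were each lost with 4 single arrays left out, at adjusted p values of up to 0.0786 and 0.0913. The CST3 call was also lost with quantile normalization once more (adjusted p = 0.0551 by limma).

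Ordered by level, CST1 was highest in BxPC3, then AsPC1-R, then BxPC3-R, then AsPC1, with no overlap between neighbours. CTSS also separated into 4 levels, in the order BxPC3, AsPC1, AsPC1-R and BxPC3-R. CTSL ran from BxPC3 over AsPC1-R and BxPC3-R, which overlapped, to AsPC1. In CTSV the top pair, AsPC1-R and BxPC3-R, overlapped, with BxPC3 and then AsPC1 below. CSTA had BxPC3 over BxPC3-R, and both far above AsPC1-R and AsPC1, which overlapped. The arrays of all neighbouring groups overlapped for CST6.

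CST1, CST3 and CST4 lie in a run of cystatin genes on chromosome 20, and the 14 measured genes from CSTL1 to CST7 were read in RefSeq order. Called changes of the derivatives were confined to CST4, CST1 and CST2, which neighbour one another among the measured genes. CST2, which encodes the salivary cystatin SA, averaged 7.78 in AsPC1-R and 7.22 in AsPC1, a log2 change of 0.57 (SE 0.10, adjusted p = 0.00117 by limma). In BxPC3-R it averaged 7.83, against 8.62 in BxPC3, a log2 change of -0.79 (SE 0.10, adjusted p = 7.05e-05). CST2 thus moved the way CST1 did in each derivative, and CST4 only in BxPC3-R. CST1, CST2 and CST4 are close in sequence, so their probe sets may share signal and their separate sizes are uncertain. Other cystatin genes gave no further call: of 12 on a list that includes the fetuin, histidine-rich glycoprotein and kininogen genes, CST2 alone changed in either derivative.

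**Figure D3:**
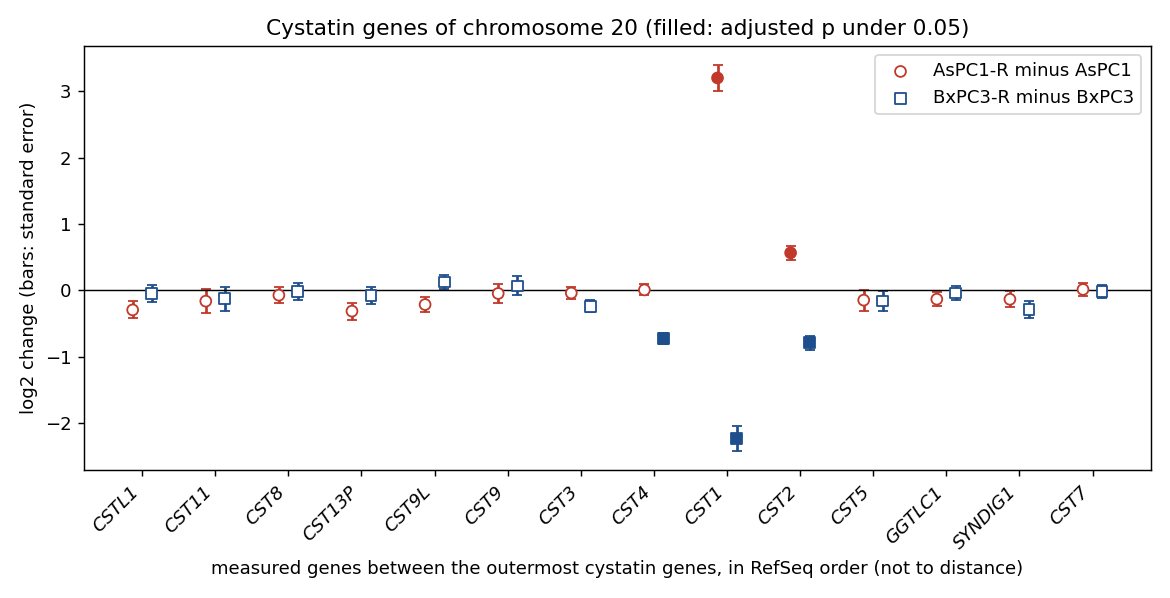
Log2 change (vertical axis, bars are standard errors) of the 14 measured genes from CSTL1 to CST7 on chromosome 20, in RefSeq order and not to distance, in AsPC1-R minus AsPC1 (circles) and BxPC3-R minus BxPC3 (squares). Filled symbols, adjusted p under 0.05, occur at CST1 and CST2 in AsPC1-R and at CST4, CST1 and CST2 in BxPC3-R.

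CTSL and CTSV are both on chromosome 9, and both rose in AsPC1-R, so their promoters are shown. They did not move together in BxPC3-R, where CTSL fell by 0.56 and the CTSV change of 0.33 was not called. RefSeq promoter windows were held for 3 of the 10 genes, CTSL, CTSV and CST3. Capitals mark the longest run that CTSL and CTSV share in the 250 bases before their starts, 23 bases long. The first line gives the 250 bases before the CTSL start (GRCh38.p14, chr9:87725869-87726118, plus strand), and the second a stretch of 30 bases around the run at CTSV (GRCh38.p14, chr9:97039202-97039231, minus strand), each 5′ to 3′.
CTSL: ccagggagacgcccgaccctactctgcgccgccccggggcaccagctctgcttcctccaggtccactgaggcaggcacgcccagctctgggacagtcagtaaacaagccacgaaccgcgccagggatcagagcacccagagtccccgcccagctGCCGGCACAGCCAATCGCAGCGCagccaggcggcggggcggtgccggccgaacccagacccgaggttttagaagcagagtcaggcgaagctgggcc
CTSV: gtgGCCGGCACAGCCAATCGCAGCGCggga
The run begins 96 bases before the CTSL start and 86 bases before the CTSV start. No other of the 35116 windows holds it in the 250 bases before the start, read on the strand of the transcript only. It contains a CCAAT box (CCAAT), a motif that the CST3 window lacks and that 32% of all windows hold on one strand or the other. GC boxes (GGGCGG, either strand, none of them overlapping the CCAAT box at CTSL or CTSV) occur 3 times at CTSL, 2 times at CTSV and once at CST3, and in 42.6% of all windows. CACGTG, the core letters of the E-box of lysosomal genes, was not found at CTSL, CTSV or CST3, and 6.34% of all windows hold it. These matches describe the letters of the windows and were not tested against the changes.

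Of 11 other cathepsins, which include serine and aspartic proteases, 3 rose and 1 fell in AsPC1-R, and 0 rose and 4 fell in BxPC3-R, with median log2 changes of 0.20 and -0.15. Over all genes, 11.6% were called higher and 8.64% lower in AsPC1-R, and 9.75% higher and 11.0% lower in BxPC3-R. The counts of the lists below stand beside the same shares. CTSH, an aminopeptidase, rose by 0.77 (SE 0.13) in AsPC1-R, CTSC, which activates granule proteases, by 0.49 (0.08) and CTSE, an aspartic protease of gastric epithelium, by 0.48 (0.12). CTSG fell by 0.39 (0.10), with levels of 5.54 in AsPC1-R and 5.93 in AsPC1 that lie in the background range. In BxPC3-R, CTSO fell by 1.42 (0.13), the aspartic protease gene CTSD by 0.50 (0.10), the carboxypeptidase gene CTSA by 0.43 (0.08) and CTSC by 0.30 (0.08). The CTSE rise was lost without AsPC1-R replicate 1 (adjusted p = 0.0541) or AsPC1 replicate 1 (0.0546). The CTSC fall was lost without BxPC3-R replicate 2 (0.0652) or BxPC3 replicate 2 (0.0529), and without BxPC3 replicate 2 3 of the 11 genes fell. CTSO ended at 5.02 in BxPC3-R, also in the background range. CTSZ, a carboxypeptidase, was called in neither derivative (-0.07 and 0.12).

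The wider lysosome was followed with 3 lists. Of 19 genes of lysosomal biogenesis and membrane, 7 rose and 0 fell in AsPC1-R, and 1 rose and 7 fell in BxPC3-R. The count in AsPC1-R dropped to 3 genes without AsPC1-R replicate 1 and to 4 without AsPC1-R replicate 3. In BxPC3-R 5 fell without BxPC3 replicate 2, and 0 rose without BxPC3 replicate 1 or any single BxPC3-R array. OSTM1, a partner of the lysosomal chloride transporter, rose by 0.68 (SE 0.10) in AsPC1-R. The peptidase gene TPP1 fell by 0.63 (0.10) and the proton pump subunit gene ATP6AP1 by 0.44 (0.09) in BxPC3-R. TFEB and TFE3, transcription factors of lysosomal genes, were called in neither. Of their relatives, MITF rose by 0.39 and TFEC fell by 0.43 in BxPC3-R, and neither call was stable. The MITF rise was lost without any single BxPC3-R array (adjusted p of up to 0.0829 by limma) or BxPC3 replicate 1 (0.119). The TFEC fall was lost with most single arrays left out in turn, BxPC3 replicate 2 among them (0.177). Of 19 measured hydrolases of other kinds, 9 rose and 1 fell in AsPC1-R, and 1 rose and 6 fell in BxPC3-R (4 fell without BxPC3 replicate 2). Some of the AsPC1-R rises were lost without AsPC1-R replicate 3, at adjusted p of 0.0557 to 0.116 by limma. HEXA, a hexosaminidase subunit, rose by 1.98 (0.15) in AsPC1-R, and the lipase gene LIPA by 0.81 (0.11). In BxPC3-R, LIPA fell by 0.96 (0.11), the sialidase gene NEU1 by 0.79 (0.10) and HEXA by 0.64 (0.15), while IDS rose by 0.75 (0.10). Median log2 changes of the biogenesis and hydrolase lists were 0.20 and 0.15 in AsPC1-R, and -0.19 and -0.06 in BxPC3-R.

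Genes of lysosomal sorting moved both ways. Of 9 measured genes of the mannose 6-phosphate and sortilin routes, 5 rose and 2 fell in AsPC1-R, and 2 rose and 2 fell in BxPC3-R. The phosphotransferase that builds the sorting tag has its subunits encoded by GNPTAB and GNPTG. GNPTG rose by 0.65 (SE 0.12) in AsPC1-R and fell by 0.50 (0.12) in BxPC3-R, while GNPTAB fell by 0.46 (0.10) in AsPC1-R and rose by 0.37 (0.10) in BxPC3-R. SORL1, a gene of the sortilin route, fell by 0.43 (0.10) in AsPC1-R and was not called in BxPC3-R (0.19). The receptor gene M6PR rose by 0.38 (0.09) in AsPC1-R and by 0.42 (0.09) in BxPC3-R. IGF2R, the larger receptor, rose by 0.52 (0.11) in AsPC1-R and fell by 0.38 (0.11) in BxPC3-R, a fall that was lost without any single BxPC3-R array (adjusted p of up to 0.0715), BxPC3 replicate 2 (0.0771) or BxPC3 replicate 3 (0.0898). The GNPTAB rise in BxPC3-R was lost without BxPC3-R replicate 1 (adjusted p = 0.0794), BxPC3 replicate 1 (0.0520) or BxPC3 replicate 3 (0.0696).

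**Figure D4:**
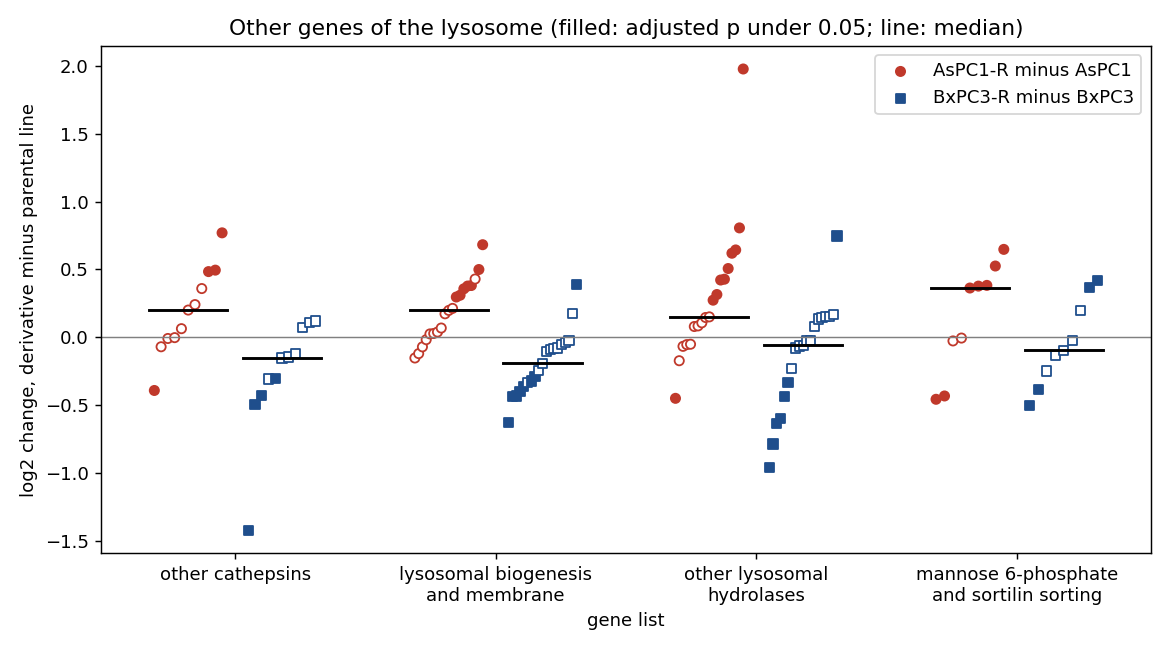
Log2 change (vertical axis) of each measured gene of 4 lists in AsPC1-R minus AsPC1 (circles) and BxPC3-R minus BxPC3 (squares), with filled symbols for an adjusted p under 0.05 and lines at the median. Most called genes of the cathepsin, biogenesis and hydrolase lists lie above 0 in AsPC1-R and below 0 in BxPC3-R, with HEXA at 1.98 the highest point.

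Other partners of these inhibitors and proteases were measured too. LGMN encodes legumain, a lysosomal asparaginyl protease that cystatins C and M/E also inhibit. It averaged 12.03 in AsPC1-R and 12.26 in AsPC1 (log2 change -0.23, adjusted p = 0.0487 by limma, lost with 10 of the 12 arrays left out in turn, at up to 0.156), and 11.55 in BxPC3-R and 11.68 in BxPC3 (-0.13, adjusted p = 0.286). SERPINB3 and SERPINB4 encode serpins, and SERPINB3 inhibits cathepsins L and S. SERPINB3 fell by 1.54 (SE 0.21) and SERPINB4 by 1.94 (0.21) in BxPC3-R. SERPINB4 ended at 4.89 in BxPC3-R, between the readings of the deleted genes, so the size of its fall is uncertain. SERPINB3 and SERPINB4 averaged at most 3.95 in AsPC1-R and 3.69 in AsPC1, under both deleted genes. Their sequences are nearly identical, and the probe sets may share signal. SERPINB13, another serpin that inhibits cathepsin L, averaged 9.62 in BxPC3-R and 9.84 in BxPC3 and was not called.

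Among the class II processing genes that work beside cathepsin S, CTSS did not share the direction of the called genes in AsPC1-R. The thiol reductase gene IFI30 rose by 0.46 (SE 0.11) there, HLA-DMA by 1.07 (0.17) and HLA-DMB by 0.63 (0.12), while CTSS fell by 0.35. HLA-DMB averaged 6.60 in AsPC1-R and 5.97 in AsPC1, near the readings of deleted genes. In BxPC3-R, IFI30 fell by 0.75 (0.11) and CTSS by 1.85. CIITA was called in neither derivative. CD74 was not analysed here.

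CTSS is abundant in leukocytes, and markers of other cells were read beside it. Of 9 leukocyte and macrophage markers, 1 reached the median of all values in AsPC1-R and AsPC1 and 2 in BxPC3-R and BxPC3. PTPRC, the pan-leukocyte marker, read 3.19 in AsPC1-R, 3.27 in AsPC1, 3.19 in BxPC3-R and 3.24 in BxPC3, under both deleted genes. The list's mean level per array lay at 5.94 to 6.03 in AsPC1-R and 5.77 to 5.94 in AsPC1. It lay at 6.16 to 6.30 in BxPC3-R and 6.32 to 6.47 in BxPC3. In AsPC1-R 3 of the 9 rose and 0 fell, and in BxPC3-R 0 rose and 2 fell (1 fell without BxPC3-R replicate 3, BxPC3 replicate 1 or BxPC3 replicate 2). The ITGAM rise in AsPC1-R was lost without AsPC1-R replicate 1 or 3, AsPC1 replicate 1 or 2, or any single BxPC3-R array (adjusted p of up to 0.1655 by limma). CD68, a lysosomal membrane protein that carcinoma cells also make, rose by 0.72 (SE 0.09) in AsPC1-R and fell by 0.72 (0.09) in BxPC3-R. Of 4 endothelial markers, CDH5 and PECAM1 fell in BxPC3-R by 2.67 and 1.24, and the list's mean was 5.75 to 5.83 in BxPC3-R and 6.63 to 6.81 in BxPC3. In AsPC1-R 1 of the 4 rose, PECAM1 by 0.66, and 0 fell. With the mean over its probe sets the PECAM1 rise in AsPC1-R was 0.21 and was not called (adjusted p = 0.365 by limma). Of 7 fibroblast markers, 0 rose and 1 fell in AsPC1-R, and 2 rose and 0 fell in BxPC3-R, with list means of 6.33 to 6.40 in AsPC1-R, 6.45 to 6.69 in AsPC1, 5.83 to 5.96 in BxPC3-R and 5.42 to 5.65 in BxPC3. The part of these markers in the results on the cystatins and cathepsins was not tested.

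For the 4 genes whose group means span more than 1 log2 unit, the genes most alike in pattern were found by Pearson's r over the 12 arrays, among 12328 genes that reach the median of all values in some group. The arrays form 4 groups of 3, so r follows mostly the group means, and it is given as a description. CST1 was most like DDX60 (r = 0.989), PI3 (0.987) and CA13 (0.986). PI3, the gene of the elastase inhibitor elafin, averaged 10.28 in AsPC1-R, 6.63 in AsPC1, 9.15 in BxPC3-R and 12.12 in BxPC3. CTSL was most like ST3GAL1 (0.9796), CTSC (0.9795) and IST1 (0.977), so its neighbours include another cathepsin gene. CSTA was most like SRGN, CPS1 and LRRN1 (r of 0.9985 to 0.9991), which like CSTA read high in both BxPC3 groups. CTSS was most like REV1 (0.960), PIK3C3 (0.956) and HMBOX1 (0.955), genes whose group means span less than that of CTSS.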

How the data were processed

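RNA of 12 samples, 3 per group, was hybridised to Affymetrix arrays. The deposited values are log2 expression per probe set, made by the authors with RMA in Affymetrix Expression Console, per the submitters' processing notes. Versions of these tools, and which genome build the array annotation follows, were not given in the sources used here. RMA quantile normalization hides a shift common to most genes. Of 33297 probe sets, 19460 carry 1 gene symbol, 1754 several and 12083 none in the annotation used, which gave 18417 genes. limma 3.58.1 in R 4.3.3 was fitted to all 4 groups together, with Benjamini-Hochberg adjustment over all genes, and called an adjusted p under 0.05. limma was first tested on simulated data. The members and lists were chosen with earlier results of these data known. All members were named, and from each list up to 4 called genes per derivative by size of change, with LGMN, CTSD, CTSH, CTSC, CTSZ and CD74. TFEB, TFE3, MITF, TFEC, CIITA, SERPINB13, CST2 and the markers were named besides, after their values were seen. Alternatives were the replicate number as a block, filtering of dim genes, other normalizations, other limma settings, mean over probe sets and leaving out each array.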

Additional observations from a re-analysis of the deposited data

Results flagged for a closer look

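For 8 of the 10 genes the change in AsPC1-R differed from the change in BxPC3-R by the test of that difference, the interaction term in limma. All 8 had the higher change in AsPC1-R, the direction in which 14.1% of all genes were called. The difference, on the log2 scale and as the change in AsPC1-R minus the change in BxPC3-R, was 5.43 for CST1 (adjusted p = 6.08e-09) and 1.66 for CTSL (adjusted p = 1.00e-05), the genes whose changes ran in opposite directions. It was 1.50 for CTSS, which fell in both derivatives and more in BxPC3-R. CSTA gave 1.05, CTSB 0.77 and CST4 0.73, genes called in BxPC3-R alone. CTSV gave 0.65, with a called rise in AsPC1-R, and CSTB 0.38, with a called fall in BxPC3-R.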

How the results depend on the processing

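Over 20 alternatives no result named here turned its direction past the threshold. CST1, CTSL and CTSV in AsPC1-R, and CST1, CST4, CSTA, CSTB, CTSB, CTSL and CTSS in BxPC3-R, were called under each alternative. With array weights 6356 genes were called in BxPC3-R instead of 3826, and the cause was not tested. Leaving out each array in turn gave 3 to 5 members called in AsPC1-R, 7 to 8 in BxPC3-R, 7 to 8 for the difference of the changes, 6 to 9 between AsPC1 and BxPC3, and 4 to 7 between AsPC1-R and BxPC3-R. Deviations of same-numbered arrays from their group means had correlations between -0.24 and 0.34 over 18 pairs, with 3 above 0.1. Arrays of different numbers were not compared in this way, so whether a replicate number marks a shared batch was not tested. With the replicate number as a block, the count of members called was 4 for AsPC1-R against AsPC1, 7 for BxPC3-R against BxPC3, 8 for the difference of changes, 8 for the parental lines and 6 for AsPC1-R against BxPC3-R, counts equal to those without it. Between the parental lines the genes were not the same: CSTB lost its call under the block (adjusted p = 0.0718) and CST6 gained one (0.0279). CST6 was also called there with dim genes left out (0.0363), arrays centred on their medians (0.0243), quantile normalization once more (0.0255) and array weights (0.00841). Genes called numbered 3553 for AsPC1-R and 3661 for BxPC3-R under the block. CTSS in AsPC1-R was not called with arrays centred on their medians (adjusted p = 0.0587) or with a fit of AsPC1-R and AsPC1 alone (0.0658), and CTSV in BxPC3-R was called with a fit of BxPC3-R and BxPC3 alone (0.0432) and with array weights (0.00588). CST3 in BxPC3-R was called with a variance trend and robust estimation (0.0493). Low readings, such as CST1 and CSTA in AsPC1, limit what their fold changes can show.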

Other observations

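Proteases and inhibitors that act beside secreted cathepsins in breaking down matrix were read as a list of 15 measured genes of plasminogen activation and matrix proteolysis. In AsPC1-R 6 rose and 1 fell, and in BxPC3-R 3 rose and 5 fell. Without AsPC1 replicate 3, 3 fell in AsPC1-R, and without AsPC1 replicate 1, 5 rose in BxPC3-R. PLAT, the gene of tissue plasminogen activator, rose by 1.98 (SE 0.11) in AsPC1-R and fell by 1.11 (0.11) in BxPC3-R. PLAU, the gene of urokinase, rose by 1.50 (0.08) in AsPC1-R and fell by 0.56 (0.08) in BxPC3-R. The metalloprotease inhibitor gene TIMP2 rose by 1.01 (0.09) in AsPC1-R and fell by 1.20 (0.09) in BxPC3-R. The collagenase gene MMP1 rose by 2.29 (0.15) in AsPC1-R, where it averaged 8.36, against 6.06 in AsPC1. The AsPC1 level lies between the readings of the deleted genes, so the size of this rise is uncertain. In BxPC3-R the stromelysin gene MMP10 rose by 1.22 (0.14) and the collagenase gene MMP13 by 1.06 (0.17).

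Stefin A is a component of the cornified envelope of skin, and 13 other genes of that structure were measured. In AsPC1-R 2 rose and 1 fell, and in BxPC3-R 1 rose and 3 fell. The fall in AsPC1-R, that of FLG, was lost without AsPC1-R replicate 1 or 3 or AsPC1 replicate 1 or 2 (adjusted p of up to 0.0616). SCEL, the gene of sciellin, averaged 8.95 in AsPC1-R and 4.98 in AsPC1, a level between the readings of the deleted genes, so the size of the difference is uncertain. SPRR2A averaged 6.66 in BxPC3-R and 9.87 in BxPC3, a log2 change of -3.20 (SE 0.14, adjusted p = 2.91e-09 by limma), and SPRR1A fell by 0.84 (0.17) while SPRR3 rose by 0.95 (0.15). The SPRR2A level in BxPC3-R lies near the readings of deleted genes, so the size of its fall is uncertain. Small proline-rich genes resemble one another in sequence, and their probe sets may share signal.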
